A study of Drosophila melanogaster with 7 samples.

Results

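Dopamine, octopamine and serotonin act in the fly brain mainly through G protein-coupled receptors, and 10 genes for such receptors are described here in single cells of the first instar larval brain. They were taken by symbol from the gene list of the deposited tables, and the rule sets no threshold on a measured value. The dopamine receptor genes were Dop1R1, Dop1R2, Dop2R and DopEcR. The octopamine receptor genes were Oamb, Octbeta1R, Octbeta2R and Octbeta3R, and the serotonin receptor genes were 5-HT1A and 5-HT7. The files held 7 other amine receptor genes (5-HT1B, 5-HT2A, 5-HT2B, Oct-TyrR, TyrR, TyrRII and Octalpha2R), which serve for comparison.

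Biogenic amines are released by small groups of neurons with wide projections, and what a target cell does depends on the receptors it carries. Dop1R1, Dop1R2, 5-HT7 and most of the beta-adrenergic-like octopamine receptors raise cAMP, whereas Dop2R and 5-HT1A lower it and Oamb raises calcium. In the mushroom body, the centre for olfactory learning, dopamine neurons converge with odour input on the Kenyon cells, the intrinsic neurons of that centre, where dopamine receptors and cAMP signalling are needed for associative memory.

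Brains of wild type Canton-S larvae, freed of the ventral nerve cord and pooled, were dissociated and measured with the Chromium 3′ assay, which counts unique molecular identifiers (UMIs), one per captured transcript. Starved larvae had been kept on agar in PBS without food for 4 hr and were compared with larvae left on normal food. The labels put the start of starvation at 11 hr after larval hatching and the methods at 12 hr, with collection at 16 hr. There were 3 starvation libraries and 4 normal libraries, which came from 2 starvation replicates (Starvation A and B) and 3 normal replicates (Normal A, B and C).

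A total of 9353 cells were in the files and 8696 passed the filter, 4347 from starved and 4349 from normally fed larvae. Library totals were between 5359444 and 25232852 UMIs. The median cell had 7023 UMIs in Starvation A and 5667 in Starvation B, against 2228 in Normal A, 3263 in Normal B and 13486 in Normal C, so depth varied more within the normal condition than between conditions. Among the passed cells, 1648 had a barcode that another library also held, and 1094 of these had over 3-fold fewer UMIs than their partner. Of these shallow copies, 255 were in Starvation A and 832 in Normal B. Results were therefore also computed without the shallow copies. Before the filter, each Normal B library shared 218 to 262 barcodes with each Starvation A library. The libraries of Normal B shared 597 with each other and those of Starvation A 170, and any other pair of libraries shared at most 5. Sharing thus crossed the conditions that are compared, and its cause was not tested.

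All 10 genes are protein coding, and all 10 identifiers matched the Ensembl BDGP6 (Release 6) annotation. Octbeta3R (FBgn0250910, chr3R:12511570-12548229, minus strand) and Octbeta2R (FBgn0038063, chr3R:12550625-12595725, minus strand) are neighbours. The remaining genes on that arm are Dop1R1 (FBgn0011582, chr3R:14165379-14214810, minus strand), Oamb (FBgn0024944, chr3R:20689018-20714577, minus strand), Octbeta1R (FBgn0038980, chr3R:22497215-22520078, plus strand), Dop1R2 (FBgn0266137, chr3R:29630304-29659984, minus strand) and 5-HT7 (FBgn0004573, chr3R:30968236-31016875, minus strand). Dop2R (FBgn0053517) lies at chrX:20004680-20062706, minus strand, DopEcR (FBgn0035538) at chr3L:4367649-4380387, minus strand, and 5-HT1A (FBgn0004168) at chr2R:19067155-19121958, plus strand. Annotated features of the same strand overlap 6 of the 10, among them CG31007 and CG31008 within 5-HT7 and lncRNA:CR46016 within Octbeta3R, and how reads shared with them were assigned is not given in the sources used here.

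Every receptor gene was detected. DopEcR had a UMI in 61.7% of the passed cells, 5-HT1A in 45.1%, Dop2R in 40.9%, Octbeta3R and Octbeta1R in 37.7% each and Octbeta2R in 31.9%. Dop1R1 was found in 22.2%, Dop1R2 in 18.0%, 5-HT7 in 13.4% and Oamb in 12.9% of cells. These are 3′ counts that are not scaled by transcript length, so levels are compared between cell classes and not between genes.

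Cells were clustered without the 17 amine receptor genes, and the 42 clusters were named from marker genes. Names ending in "-like" rest on such markers, and "neurons" stands for clusters with neuron markers. Neurons were grouped by the transmitter gene that led the cluster: 1224 cells were led by VAChT, the vesicular transporter of acetylcholine, 765 by VGlut, that of glutamate, 696 by Gad1, the enzyme that makes GABA, and 234 by Vmat, the vesicular transporter of amines. There were also 248 Kenyon-like cells (9 of 10 markers detected, with prt and Nep1 among the leading genes), 449 peptidergic-like neurons and 1344 neurons in which no transmitter gene led. Of that last group, 1232 cells lay in clusters that came mostly from 1 replicate. The group made up 11.3% and 6.19% of the passed cells of Starvation A and B, against 49.2% for Normal A, 12.1% for Normal B and 1.12% for Normal C. Outside the neurons stood 600 glia-like cells, 813 cells like undifferentiated neurons (UN-like), 486 like neural progenitors (NPC-like), 189 like optic lobe epithelium and smaller numbers of muscle-like (108), trachea-like (84), prothoracic gland-like (52), hemocyte-like (48) and corpora allata-like (24) cells.

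The rule on markers left 925 cells without a name and held back 407 further cells, which had all 9 neuron markers, because the trachea marker trh was among their leading genes. The unnamed cells were 11.8% of Starvation A and 12.2% of Starvation B, against 2.19%, 14.3% and 6.34% of the cells from the normal replicates A, B and C. The held back cells were 5.78% and 7.09% of the starvation replicates, against 0.65%, 3.12% and 7.95% of the normal ones. Levels are counts of the gene scaled to the UMI total of the class (CPM), computed in each replicate with at least 10 cells of that class. With 3 cells each, Normal C gave no value for Kenyon-like and UN-like cells. Classes were formed from the same cells in which receptors were measured, so differences between them are described by replicate values and not tested.

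All 10 receptor genes were highest in neurons. In each of them the lowest neuron replicate lay above the highest replicate of the glia-like, the UN-like and the muscle-like cells. Over the 7612 genes with at least 20 CPM in 1 class, many of which were used in clustering, 30.2% lay above glia-like, 15.7% above UN-like and 22.5% above muscle-like cells in the same way. The mean level in neurons was 4.77-fold (Oamb) to 15.7-fold (Dop1R2) that in glia-like cells. DopEcR averaged 365 ± 28.7 CPM in neurons and 47.2 ± 10.2 CPM in glia-like cells, and 5-HT1A averaged 411 ± 68.2 and 46.2 ± 23.0 CPM in the same order (SD, n = 5 each). Among the neuron classes led by VAChT, VGlut or Gad1, levels were near each other: the highest of the 3 means was 1.01-fold (DopEcR) to 1.57-fold (Dop1R1) the lowest in 9 of the 10 genes. Oamb was the exception with a fold of 3.00, at 53.1 ± 29.1 CPM in VAChT-led, 41.2 ± 5.19 CPM in VGlut-led and 17.7 ± 13.3 CPM in Gad1-led neurons (SD, n = 5 each). Without Normal A its mean was 40.6 CPM in VAChT-led and 39.9 CPM in VGlut-led neurons, so the VAChT-led mean rested in part on that replicate.

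**Figure D1:**
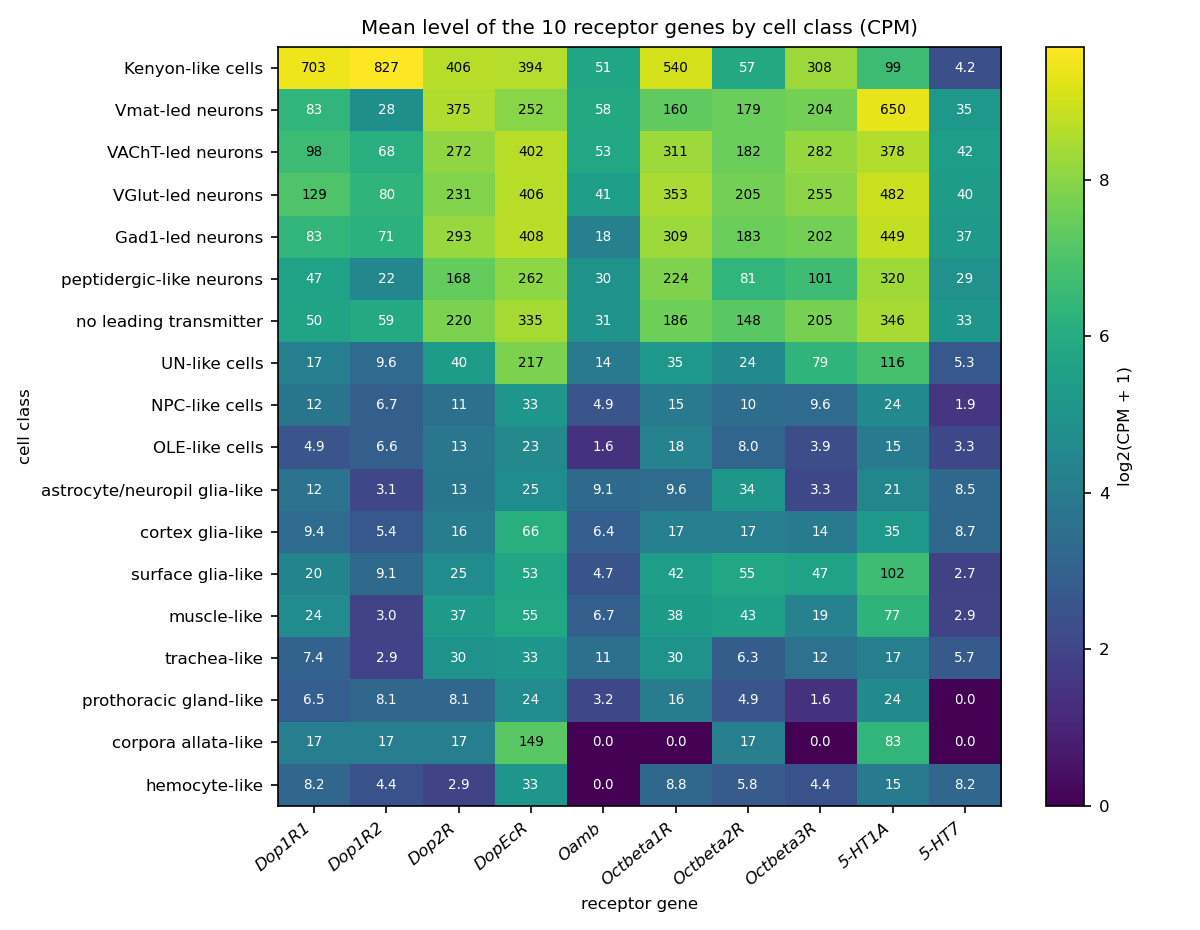
Mean level of each receptor gene (columns) in each cell class (rows), in CPM averaged over the replicates with at least 10 cells. Cell numbers print the CPM and colour gives log2(CPM + 1). The brightest fields are Dop1R1 and Dop1R2 in Kenyon-like cells and 5-HT1A in Vmat-led neurons.

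Among the receptors that were higher in Kenyon-like cells than in other neurons, Dop1R1 and Dop1R2 had the largest folds. Dop1R1, the receptor through which dopamine acts in odour learning, had 627 and 719 CPM in the Kenyon-like cells of Starvation A and B, and 648 and 817 CPM in those of Normal A and B. Every one of these values exceeded every replicate of every other neuron class, in which the highest was 201 CPM. The mean of 703 ± 85.8 CPM (SD, n = 4) was 7.17-fold that of VAChT-led, 5.44-fold that of VGlut-led and 8.51-fold that of Gad1-led neurons.

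Dop1R2, the other receptor of the same type, which in adult flies takes part in forgetting, had 773 and 900 CPM in the Kenyon-like cells of the starvation replicates, and 789 and 848 CPM in those of Normal A and B. Its mean of 827 ± 58.0 CPM (SD, n = 4) was 12.2-fold that of VAChT-led, 10.3-fold that of VGlut-led and 11.6-fold that of Gad1-led neurons. Dop1R2 was also among the 10 leading genes of the Kenyon-like cluster, although it had no part in the clustering. At the other end of the neurons stood the peptidergic-like neurons, with 21.6 ± 11.0 CPM, and the Vmat-led neurons, with 27.5 ± 7.34 CPM (SD, n = 5 each). The Vmat-led replicates were all below those of the VAChT-led, VGlut-led and Gad1-led neurons.

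Both genes were often found in the same Kenyon-like cell. With every cell thinned to 1000 UMIs, so that depth was equal, 66 of 248 Kenyon-like cells (26.6%) had a UMI of both Dop1R1 and Dop1R2, against 8 of 1224 VAChT-led neurons (0.654%), 5 of 765 VGlut-led neurons (0.654%) and 1 of 696 Gad1-led neurons (0.144%). At full depth, 204 Kenyon-like cells (82.3%) held both and 6 held neither. In VAChT-led neurons at full depth, 109 cells held both and 607 neither. At equal depth, 55 Kenyon-like cells had Dop1R1 alone and 51 had Dop1R2 alone. Cells of all replicates were pooled, and the share of double cells expected from the separate shares was not computed. These counts therefore do not show joint expression beyond the separate levels of both genes.

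Dop2R, the inhibitory dopamine receptor that also serves as an autoreceptor on dopamine neurons, differed less between classes. It had 401 and 455 CPM in the Kenyon-like cells of Starvation A and B, and 310.1 and 457 CPM in those of Normal A and B. In Vmat-led neurons it had 286 and 553 CPM in the starvation replicates, and 251, 299.96 and 487 CPM in the normal ones. The ranges of these leading classes overlapped, and both overlapped those of VAChT-led neurons (272 ± 109 CPM) and Gad1-led neurons (293 ± 73.6 CPM; SD, n = 5 each). The Kenyon-like range began just above the highest VGlut-led replicate, which had 308 CPM.

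DopEcR, a receptor that responds to dopamine and to ecdysteroids, was the most even across neurons. Its mean was 402 ± 47.8 CPM in VAChT-led, 406 ± 38.1 CPM in VGlut-led and 408 ± 33.8 CPM in Gad1-led neurons (SD, n = 5 each), and 394 ± 71.0 CPM in Kenyon-like cells (SD, n = 4). The replicates of all 4 classes overlapped. Vmat-led neurons, at 252 ± 33.7 CPM, and peptidergic-like neurons, at 262 ± 19.2 CPM (SD, n = 5 each), lay below VAChT-led neurons in every replicate.

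DopEcR was also the receptor gene in which UN-like cells came nearest to neurons. It had 239 and 140.4 CPM in the UN-like cells of Starvation A and B, and 198 and 293 CPM in those of Normal A and B, all above the NPC-like replicates, of which the highest had 57.8 CPM. Of the 214 UN-like cells of Normal A, 212 lay in a cluster that came to 93.4% from Normal A. Hsp70Bc, Hsp68 and Hsp26 were among its leading genes. All UN-like values of Normal A rest mostly on that cluster, and those of the other replicates mostly on another. Neurons exceeded UN-like cells by 1.68-fold in DopEcR, by 2.78-fold in Octbeta3R and by 3.55-fold in 5-HT1A, but by 6.04-fold in Dop1R1 and 9.09-fold in Dop1R2. UN-like replicates were above all NPC-like replicates in 4 of the 10 genes, namely Dop2R, DopEcR, Octbeta3R and 5-HT1A, and overlapped them in the other 6, and over the same 7612 genes 20.7% lay above.

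Octbeta3R had 55.7 and 91.0 CPM in the UN-like cells of Starvation A and B, and 101 and 70.2 CPM in those of Normal A and B. In NPC-like cells its highest replicate had 14.4 CPM, and the UN-like mean was 8.32-fold the NPC-like mean. 5-HT1A had 153 and 75.9 CPM in the UN-like cells of the starvation replicates, and 91.6 and 143 CPM in those of Normal A and B, with a mean 4.81-fold that in NPC-like cells. The 5-HT1A values overlapped those of the muscle-like cells, whereas DopEcR, Octbeta3R and Dop1R2 lay above them in every UN-like replicate, as did 19.9% of the 7612 genes.

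**Figure D2:**
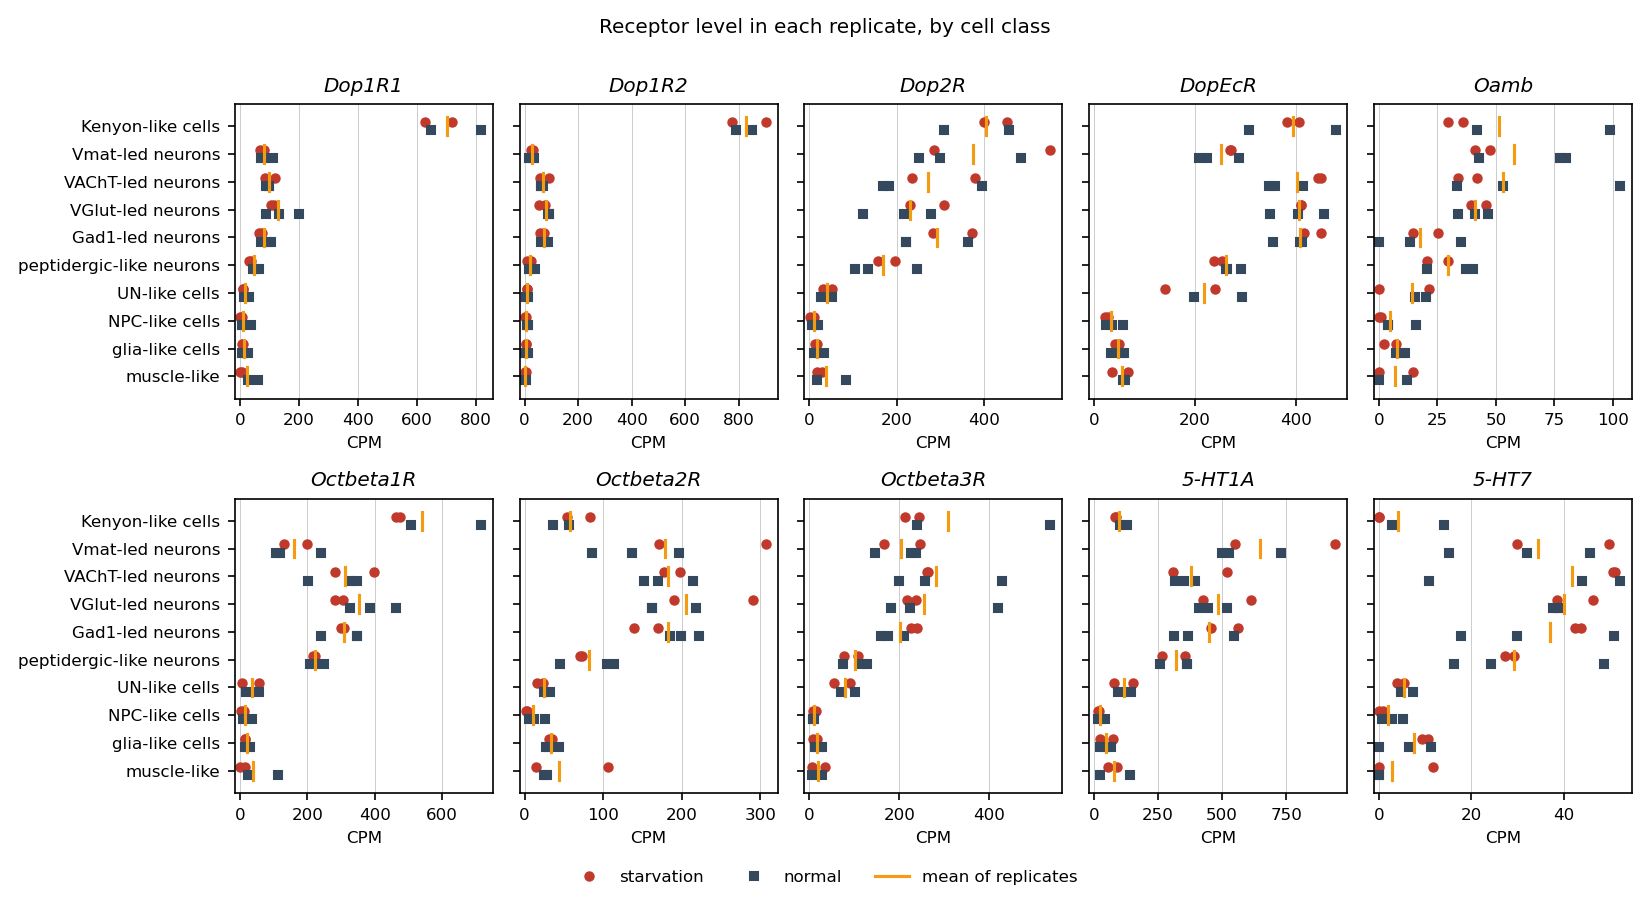
Level of each receptor gene in CPM (horizontal axis) in each replicate of 10 cell classes. Circles are starvation replicates, squares are normal replicates and vertical bars are the means. Dop1R1 and Dop1R2 in Kenyon-like cells lie apart from all other classes, whereas circles and squares of 1 class mostly lie among each other.

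Of the octopamine receptors, Octbeta1R was highest in Kenyon-like cells. This receptor inhibits synaptic growth at the larval neuromuscular junction. It had 476 and 464 CPM in the Kenyon-like cells of Starvation A and B, and 507 and 714 CPM in those of Normal A and B, against means of 311 ± 73.5 CPM in VAChT-led, 353 ± 73.5 CPM in VGlut-led and 309 ± 43.5 CPM in Gad1-led neurons (SD, n = 5 each). The lowest Kenyon-like replicate lay only just above the highest VGlut-led replicate, and both rounded to 464 CPM. Vmat-led neurons had the lowest mean of these classes, 159.5 ± 58.0 CPM, with a range that lay below that of the VGlut-led neurons and overlapped that of the other 2 classes.

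Octbeta2R, which promotes growth of octopamine and motor terminals in the larva, was low in Kenyon-like cells. It had 53.3 and 83.1 CPM in the Kenyon-like cells of the starvation replicates, and 56.4 and 36.3 CPM in those of Normal A and B. All of these lay below every replicate of the VAChT-led (182 ± 24.4 CPM), VGlut-led (205 ± 53.1 CPM), Gad1-led (183 ± 31.3 CPM) and Vmat-led neurons (179 ± 82.4 CPM; SD, n = 5 each). The Kenyon-like mean of 57.3 ± 19.4 CPM (SD, n = 4) was 0.314-fold that of VAChT-led neurons.

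Octbeta3R had its highest mean in Kenyon-like cells, 308 ± 152 CPM (SD, n = 4), but Normal A alone, with 536 CPM, lay above the rest. The other Kenyon-like values were 213 and 244 CPM in Starvation A and B, and 239.9 CPM in Normal B. They lay within the ranges of VAChT-led (282 ± 86.1 CPM) and VGlut-led neurons (255 ± 93.3 CPM), and at the upper end of or just above that of Gad1-led neurons (202 ± 33.6 CPM; SD, n = 5 each), whose highest replicate had 238 CPM. Normal A was the highest replicate in VAChT-led and VGlut-led neurons too, with 428 and 418 CPM.

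Oamb, the alpha-adrenergic-like receptor, was low throughout. In Kenyon-like cells it had 36.0 and 29.3 CPM in Starvation A and B, and 98.7 and 41.8 CPM in Normal A and B. It had 57 UMIs in all 248 Kenyon-like cells together. This receptor is known for its role in Kenyon cells of adult flies, where it serves appetitive learning. Its ranges in Kenyon-like cells overlapped those of VAChT-led, VGlut-led, Gad1-led and Vmat-led neurons.

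Of the serotonin receptors, 5-HT1A was low in Kenyon-like cells and highest in Vmat-led neurons. In Kenyon-like cells it had 85.0 and 83.1 CPM in the starvation replicates, and 127 and 100.4 CPM in Normal A and B. Every other neuron class was above this in every replicate, and the Kenyon-like mean of 98.9 ± 20.2 CPM (SD, n = 4) was 0.262-fold that of VAChT-led, 0.205-fold that of VGlut-led and 0.220-fold that of Gad1-led neurons. In Vmat-led neurons 5-HT1A had 549 and 942 CPM in Starvation A and B, and 729.7, 499.9 and 527 CPM in Normal A, B and C. The ranges of Vmat-led neurons overlapped those of VAChT-led (378 ± 86.8 CPM), VGlut-led (482 ± 85.0 CPM) and Gad1-led neurons (449 ± 109 CPM; SD, n = 5 each).

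5-HT7, the serotonin receptor that raises cAMP, was scarcely found in Kenyon-like cells. It had no UMI in the Kenyon-like cells of Starvation A and B, and 14.1 and 2.79 CPM in those of Normal A and B, from 2 UMIs in 248 cells. A count of 0 allows up to 3 UMIs per replicate, so its absence is not shown. In the other neuron classes its mean lay between 29.1 CPM in peptidergic-like and 41.7 CPM in VAChT-led neurons. The Kenyon-like replicates lay below those of the VGlut-led, Gad1-led and Vmat-led neurons and overlapped those of the VAChT-led neurons, of which Normal A had 10.8 CPM.

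Counted over the 10 genes, Kenyon-like replicates lay above VAChT-led neurons in 3 genes, below in 2 and among them in 5, where 4.78% of the 7612 genes lay above and 8.39% below. Vmat-led neurons lay above VAChT-led neurons in 0, below in 2 (Dop1R2 and DopEcR) and among them in 8, where 1.54% of the 7612 genes lay above and 1.77% below. Peptidergic-like neurons, whose clusters had SIFa, Lk and Ilp2 among their leading genes, lay below VAChT-led neurons in 5 genes. These were Dop1R1, Dop1R2, DopEcR, Octbeta2R and Octbeta3R. In the other 5 the ranges overlapped, and 3.57% of the 7612 genes lay below. With the receptor genes kept in the clustering, peptidergic-like clusters held 239 and 117 cells, 5 and 31 of them from Normal C. In the main clustering, 181 of 449 such cells came from Normal C. Ranges were counted with the main clustering only.

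Vmat-led neurons were then split by the amine gene each cell itself carried, since receptors on cells that release the same amine can act as autoreceptors. A cell was assigned with at least 2 UMIs of ple (tyrosine hydroxylase, for dopamine), Trh (tryptophan hydroxylase, for serotonin) or Tdc2 and Tbh (for tyramine and octopamine), if 1 of these led. This gave 90 ple cells, 89 Trh cells and 25 Tdc2 or Tbh cells, and left 30 unassigned.

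Dop2R was higher in ple cells. It had 587 and 730.2 CPM in the ple cells of Starvation A and B, and 397, 395 and 666 CPM in those of Normal A, B and C. In Trh cells it had 135 and 206 CPM in the starvation replicates, and 173 and 108 CPM in Normal A and B, while Normal C had fewer than 10 such cells. The ranges were apart, with means of 555 ± 154 CPM (SD, n = 5) and 155 ± 42.8 CPM (SD, n = 4). The share of all genes with ranges apart between ple and Trh cells was not computed.

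5-HT1A showed the reverse. In Trh cells it had 998 and 1753 CPM in the starvation replicates, and 1062 and 911 CPM in Normal A and B. In ple cells it had 57.9 and 471 CPM in the starvation replicates, and 414, 137 and 98.3 CPM in the normal ones. These ranges were apart as well, again with no share of all genes beside them. For the remaining receptor genes the ranges of ple and Trh cells overlapped. Some values rest on few cells, with 12 ple and 11 Trh cells in Starvation B. A UMI of 5-HT1A was found in 98.9% of Trh cells and 42.2% of ple cells, and a UMI of Dop2R in 81.1% of ple cells and 53.9% of Trh cells.

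Octbeta2R was highest in the Tdc2 or Tbh cells, in which 92.0% had a UMI. Summed over the 25 cells it stood at 360.3 CPM from 106 UMIs, against 158.5 CPM in Trh cells and 93.9 CPM in ple cells by the same sum. Only Starvation A had 10 such cells, with 415 CPM, so this has no replicate check. In these 25 cells 5-HT1A was found in 100% and Dop2R in 76.0%, at summed levels of 357 and 292 CPM. Dop1R1 averaged 89.0 ± 36.0 CPM in ple cells (SD, n = 5) and 60.2 ± 14.9 CPM in Trh cells (SD, n = 4), and Dop1R2 had 7 UMIs in the 90 ple cells. Without shallow copies, the summed level of Dop2R in ple cells was 571 CPM and that of 5-HT1A in Trh cells 1128 CPM.

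**Figure D3:**
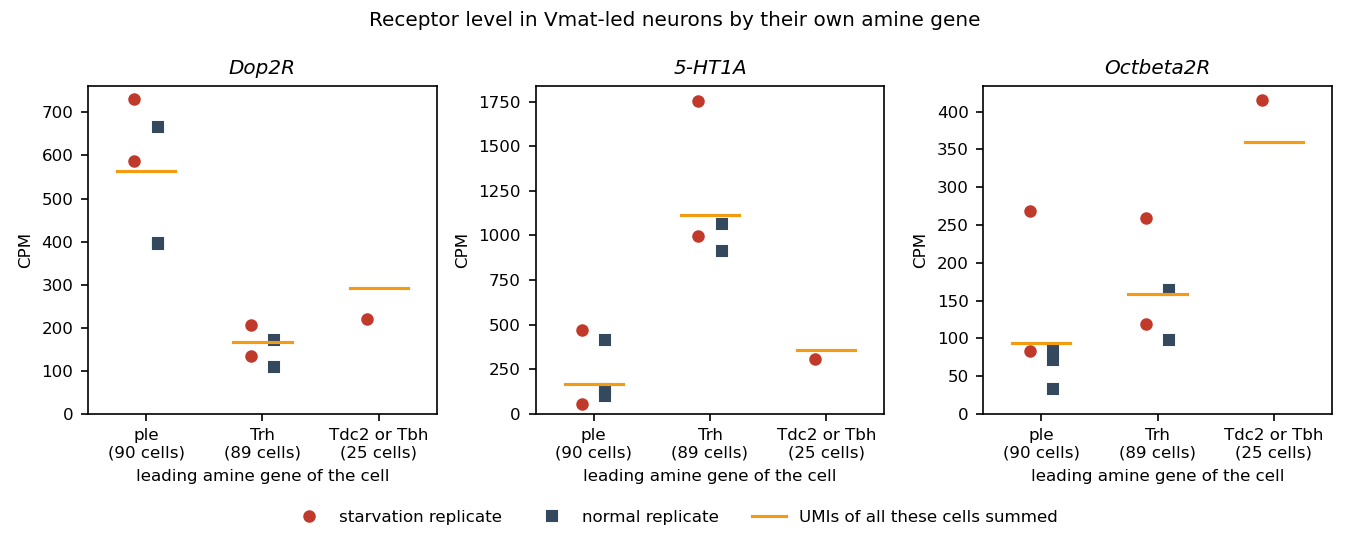
Level of Dop2R, 5-HT1A and Octbeta2R in CPM (vertical axis) in Vmat-led neurons, split by the amine gene of each cell (horizontal axis). Circles are starvation and squares normal replicates with at least 10 such cells, and bars are sums over all cells of the kind. Dop2R is highest in ple cells, 5-HT1A in Trh cells and Octbeta2R in the 25 Tdc2 or Tbh cells.

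Glia-like cells held few receptor UMIs. Their replicate ranges overlapped those of the muscle-like cells in all 10 genes, as did those of 87.5% of the 7612 genes. By subtype, Octbeta2R averaged 34.1 CPM in astrocyte and neuropil glia-like, 16.8 CPM in cortex glia-like and 55.4 CPM in surface glia-like cells. DopEcR averaged 25.2, 65.8 and 52.7 CPM in these subtypes. 5-HT1A reached 102 ± 83.0 CPM in surface glia-like cells (SD, n = 5), with 32.7 and 222 CPM in Starvation A and B, and 84.2, 24.5 and 148 CPM in Normal A, B and C. These values overlapped those of the muscle-like replicates, which ran from 24.1 to 141 CPM.

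At equal depth the shares of cells gave the same leading classes as at full depth in 8 of the 10 genes. Thinned to 1000 UMIs, 48.8% of Kenyon-like cells had a UMI of Dop1R1 (exact binomial 95% interval 42.4% to 55.2%), 47.2% of Dop1R2 and 40.3% of Octbeta1R, but 0.403% of 5-HT7. A UMI of 5-HT1A was found in 41.9% of Vmat-led, 24.2% of VAChT-led and 8.06% of Kenyon-like cells at this depth. Intervals cover counting error only.

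Muscle-like and hemocyte-like cells gauge the share that free RNA and mixed droplets may leave, but their own expression of these genes was not tested. Per gene it was 0.926% to 7.41% in muscle-like cells (median 3243 UMIs per cell) and 0% to 2.08% in hemocyte-like cells (median 5184), in which 0 of 48 cells allows a share of up to 6.25%. In glia-like cells it was 0.5% to 4.67% (median 4789.5 UMIs), below the muscle-like share in 9 of the 10 genes and above it only in Dop2R, with 2.17% of glia-like and 1.85% of muscle-like cells. It exceeded the highest hemocyte-like share in 5 of the 10 genes, and how far free RNA makes up these shares was not tested. At least 1 of the 10 receptors was found in 92.3% of Kenyon-like cells, 79.9% of neurons, 40.6% of UN-like, 29.6% of muscle-like, 17.8% of glia-like, 11.3% of NPC-like and 4.17% of hemocyte-like cells. Shallow copies were 45.9% of the NPC-like and 54.2% of the hemocyte-like cells.

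**Figure D4:**
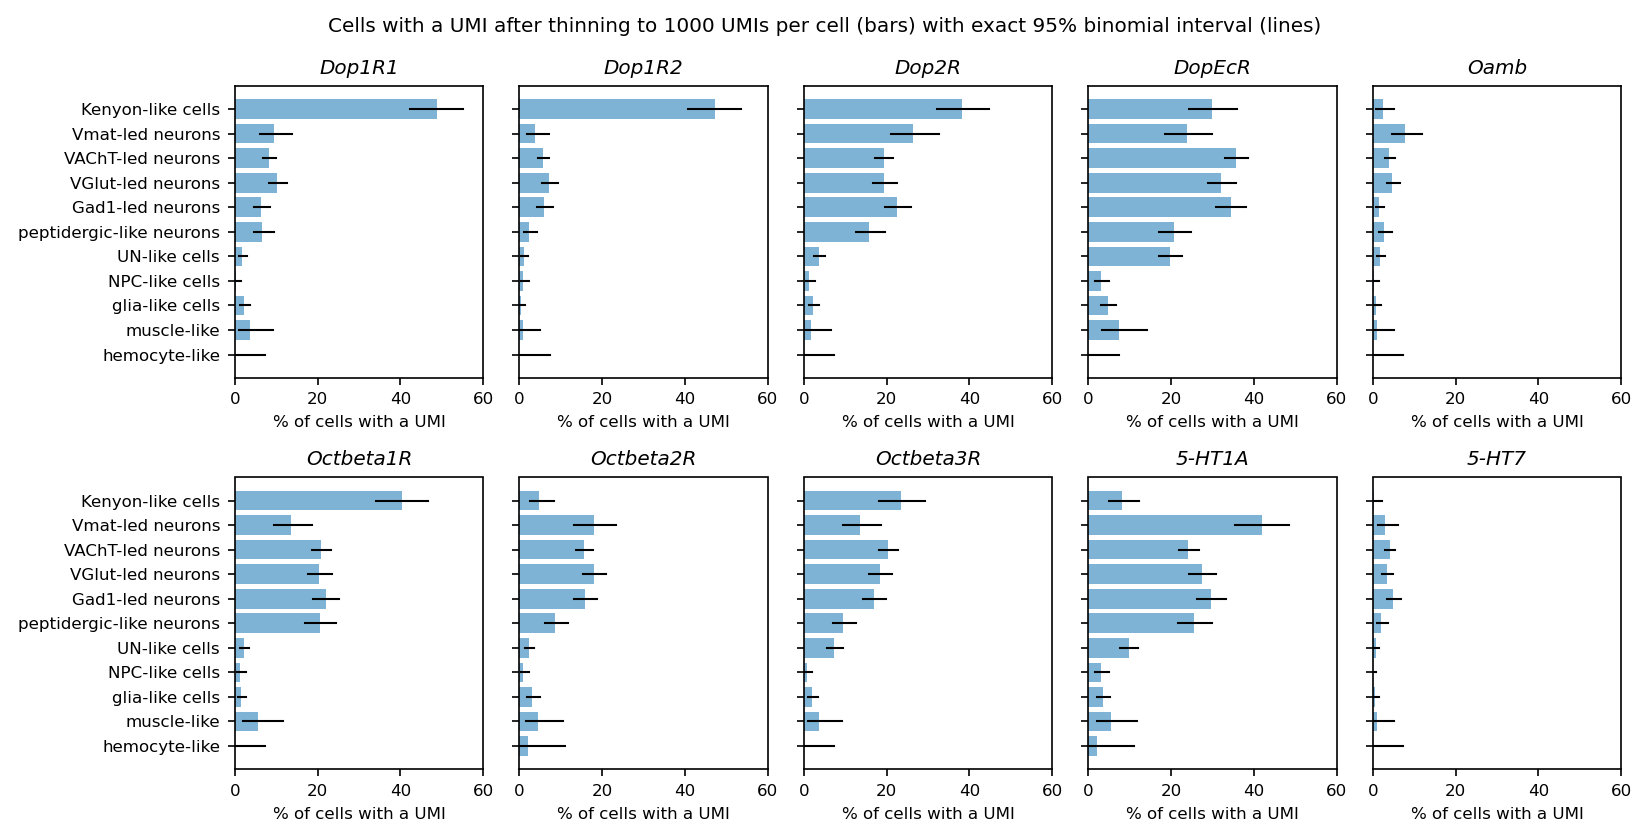
Share of cells with at least 1 UMI of each receptor gene (horizontal axis, percent) after thinning every cell to 1000 UMIs, by cell class. Bars are shares and lines exact binomial 95% intervals. Kenyon-like cells reach 48.8% in Dop1R1 and 47.2% in Dop1R2, and glia-like cells stay at 4.67% or less.

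The genes most alike in their levels over the 18 named classes were sought among 7612 genes by Pearson's r of log2(CPM + 5), as a description. Points share libraries and depth, and all 10 receptor genes share the step between neurons and the rest. For Dop1R1 these were 14-3-3zeta (r = 0.971), the co-chaperone gene jdp (0.969) and Pka-C1, the catalytic subunit of protein kinase A (0.962), which was also a marker used to name Kenyon-like cells. For Dop1R2 they were hec (0.953), Dop1R1 itself (0.942) and ctp (0.936).

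Dop2R was most like VhaM9.7-a (0.985) and the endophilin gene EndoA (0.985), and DopEcR most like qvr (0.984) and the synaptotagmin gene Syt7 (0.972). Octbeta1R was closest to CG32683 (0.983), Octbeta3R to the glutamate receptor gene GluRIB (0.983) and Oamb to p (0.958). Octbeta2R was closest to dpr1 (0.966) and to another octopamine receptor gene, Octalpha2R (0.959). 5-HT1A was closest to beat-Va (0.962) and 5-HT7 to dpr2 (0.961). Between the 10 receptors themselves r ran from 0.433 for Dop1R2 and 5-HT7 to 0.951 for Octbeta1R and Octbeta3R.

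Starvation for 4 hr was then compared with normal feeding within each class. UMI sums per replicate went into edgeR's quasi-likelihood test, with p adjusted over all genes of the class and a threshold of 0.05. Taking all neurons together, 0 of the 10 receptor genes passed, and 0.0373% of all genes tested did (3 of 8048). None of the 10 had an unadjusted p under 0.05 in neurons. The make-up of these pooled neurons differed between replicates. Those with no leading transmitter ranged from 1.12% of the passed cells in Normal C to 49.2% in Normal A, and were not fitted alone. Peptidergic-like neurons ranged from 2.21% in Normal B to 22.5% in Normal C. How far this make-up shaped the pooled values was not tested.

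In neurons Dop1R1 had 91.2 and 126 CPM in Starvation A and B, against 93.8, 140.4 and 72.9 CPM in Normal A, B and C. Dop2R had 236 and 359 CPM in the starvation replicates, against 166, 215 and 327 CPM in the normal ones. 5-HT1A had 329.7 and 518 CPM in the starvation replicates, against 395, 398 and 415 CPM in the normal ones. In these genes the starvation and normal values overlapped. The log2 fold change (starvation over normal) lay between -0.23 (Oamb) and 0.36 (Dop1R2, SE 0.32), with 95% intervals that reached from -0.85 to 1.25. Those bounds belong to Oamb and Dop2R, and other intervals were narrower, such as -0.33 to 0.57 for DopEcR. For each gene, changes within its own interval are not excluded by these replicates. For Dop1R2 the pooled value exceeded those of VAChT-led (0.19), VGlut-led (-0.45), Gad1-led (-0.18), Vmat-led (-0.04), peptidergic-like (-0.98) and Kenyon-like neurons (0.09). Kenyon-like cells, in which Dop1R2 was highest, were 3.38% and 4.50% of the passed cells of Starvation A and B, against 2.35%, 2.56% and 0.37% of those of Normal A, B and C, and their part in the pooled value was not tested.

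In the transmitter classes the counts were likewise 0 of 10. All genes tested passed at 0% in VAChT-led, VGlut-led and Gad1-led neurons, at 0.0247% in Vmat-led neurons (1 of 4056) and at 0.323% in peptidergic-like neurons (16 of 4960). In peptidergic-like neurons Dop1R1 had 30.6 and 36.5 CPM in Starvation A and B, against 64.6, 46.5 and 55.4 CPM in Normal A, B and C. These values did not overlap, but the log2 fold change of -0.64 (SE 0.33, 95% interval -1.37 to 0.09) did not pass the test (edgeR adjusted p = 0.580). In Kenyon-like cells 0 of the 9 receptor genes tested passed, against 0% of all genes. 5-HT7 had too few UMIs to be tested there. The log2 fold change in Kenyon-like cells was -0.08 (SE 0.24, 95% interval -0.62 to 0.47) for Dop1R1 and 0.09 (SE 0.23, 95% interval -0.42 to 0.60) for Dop1R2. Of the octopamine receptors in these cells, Octbeta2R had 0.71 (SE 0.47), Oamb -0.64 (SE 0.53) and Octbeta3R -0.57 (SE 0.37).

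Octbeta2R in Vmat-led neurons was the only one of the 99 main edgeR tests with an unadjusted p under 0.05. DESeq2 gave 0 of 110, whereas the highest number under any other setting was 12. Octbeta2R had 171 and 307 CPM in Starvation A and B, against 196, 85.7 and 136 CPM in Normal A, B and C. These values overlapped. The log2 fold change was 0.81 (SE 0.36, 95% interval 0.02 to 1.60; edgeR adjusted p = 0.669). Tdc2 or Tbh cells, in which Octbeta2R was highest, were 14 of 83 and 3 of 29 Vmat-led neurons in Starvation A and B, against 3 of 45, 1 of 47 and 4 of 30 in Normal A, B and C. Their part in this difference was not tested.

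Outside the neurons, 0 of the 5 receptor genes tested in glia-like cells passed, while 2.09% of all genes did (92 of 4406). Glia-like cells thus had the largest background of calls among the classes, and Octbeta3R there had the lowest adjusted p of all 99 tests, 0.451 by edgeR, with a log2 fold change of -0.76 (SE 0.48). In NPC-like cells 0 of 8 passed (0% of all genes), with Octbeta2R at a log2 fold change of -1.63 (SE 0.76, 95% interval -3.27 to 0.01), and in UN-like cells 0 of 7 (0.0758% of all genes, 4 of 5279). With all passed cells summed, 0 of 10 passed (0% of all genes).

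Whether starvation acted differently in glia-like cells and neurons was tested as an interaction with the replicate as a block. None of the 10 receptor genes passed, as did 0% of all 8214 genes, and the lowest unadjusted p of a receptor gene was 0.109 in edgeR (Octbeta3R, difference of log2 fold changes -0.75, SE 0.43).

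**Figure D5:**
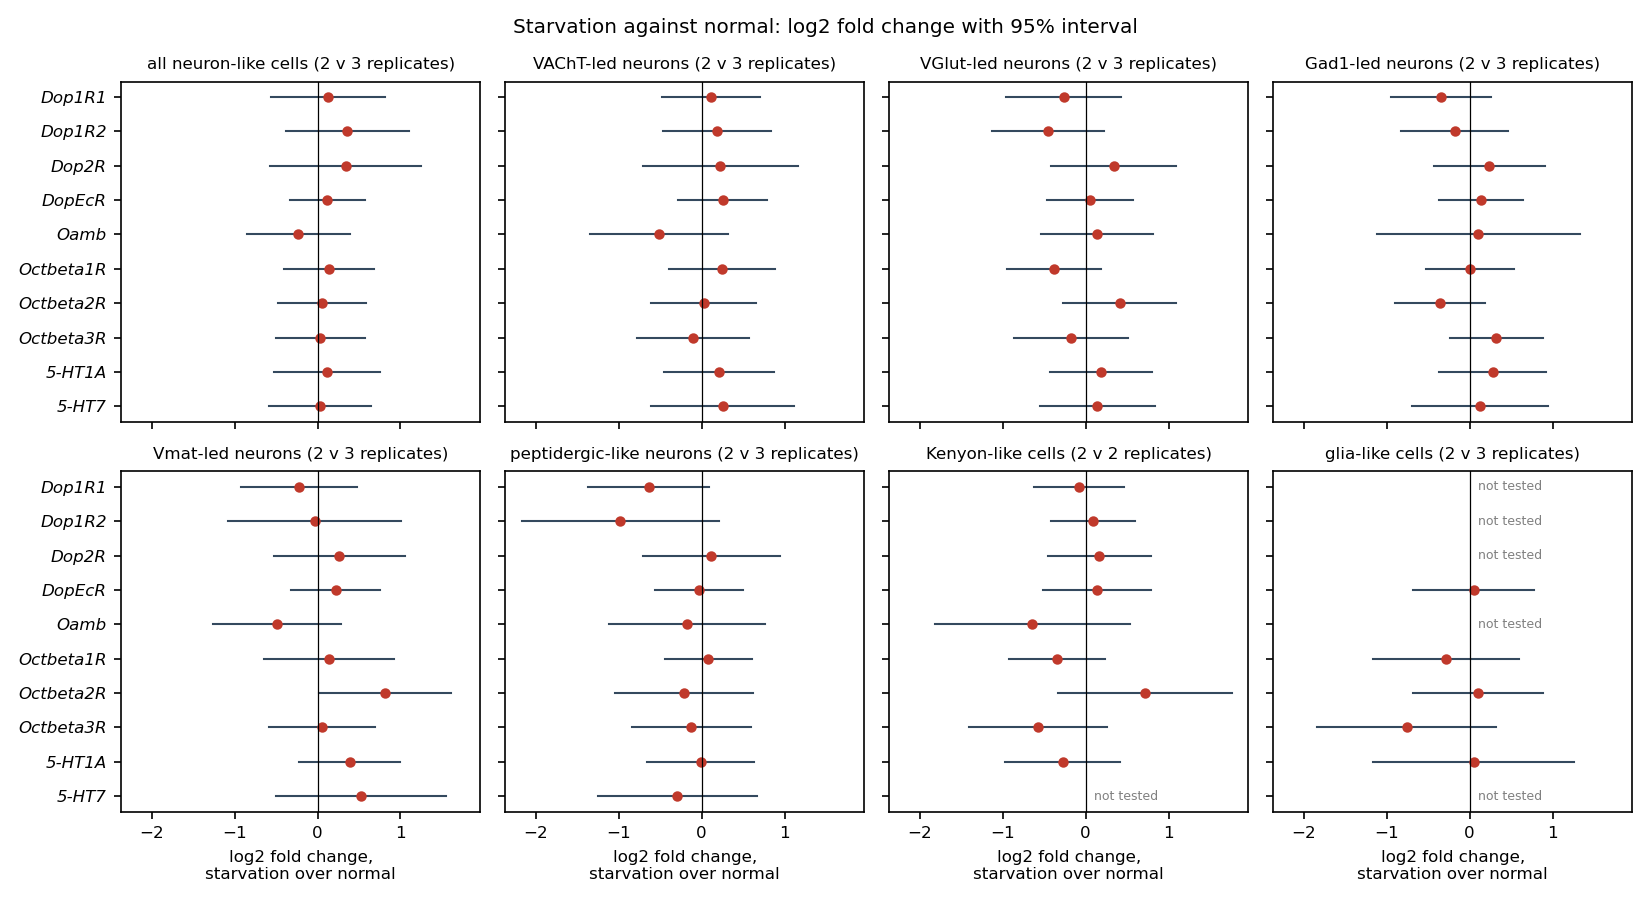
Log2 fold change of each receptor gene, starvation over normal (horizontal axis), in 8 groups of cells, with points for estimates and lines for 95% intervals from edgeR. The intervals cover 0 in every test shown except Octbeta2R in Vmat-led neurons, whose lower bound is 0.02.

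Other genes of amine signalling also gave no call in any of the 11 groups of cells tested. Of all genes, 2.09% passed in glia-like cells and at most 0.323% in any other group. Of the 7 other amine receptor genes, 0 passed in 50 tests, with 5-HT2B lowest (log2 fold change -0.31) and 5-HT2A highest (0.62, SE 0.18, edgeR adjusted p = 0.382) in neurons. Of the 13 measured genes of amine synthesis and transport, 0 passed in 73 tests. Their lowest value in neurons was that of Pu (-0.48), which makes the pterin cofactor of the hydroxylases. Their highest was that of the transporter gene prt (1.10, SE 0.44). As prt was also a marker of Kenyon-like cells, their share may enter this pooled value, which was not tested.

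Of 24 measured genes of G protein, cAMP and calcium signalling, 0 passed in 238 tests, beside the same low shares of all genes. In neurons the arrestin gene krz was lowest (-0.40) and the adenylyl cyclase gene Ac78C highest (0.32). In neurons the median log2 fold change was 0.12 over the 10 receptor genes, -0.03 over the other amine receptors, 0.13 over synthesis and transport, 0.08 over signalling genes and 0.01 over all 8048 genes. In glia-like cells the signalling genes ran from -0.88 for CaMKII to 1.35 for Ac78C, and in Kenyon-like cells from -0.35 for Ac3 to 0.61 for Pkc53E.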

How the data were processed

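Brain cells of starved and normally fed larvae were measured in 7 Chromium 3′ libraries. The authors counted UMIs with Cell Ranger on FlyBase release 6 and deposited raw counts per gene and cell. Aggregated counts equalled those of the single libraries. Libraries were joined into 5 replicates by the study's sequencing table. The study's filter (200 to under 4500 genes, at most 20% mitochondrial UMIs) was applied. Cells were integrated and clustered in Seurat 5.3.0 (2000 variable genes, 30 dimensions, resolution 2) without 17 amine receptor genes. Clusters were named with at least 3 markers in 25% of cells; the fold limits were set after seeing the clusters. Doublet calls (Scrublet in scanpy 1.11.5) marked 0.471% of cells and were not used; leaving out the highest 5% of scores was an alternative. Class sums per replicate (at least 10 cells) were tested with edgeR 4.0.16 (TMM, filterByExpr, Benjamini-Hochberg), with DESeq2 1.42.0 as an alternative. The edgeR script was tested on simulated data. The labels say nothing of separate cultures, so p-values measure the spread between these replicates only. The text names the 10 receptors in every class, genes of 3 lists that pass or have the largest and smallest fold, and the genes most alike (at least 20 CPM in 1 class). Members and lists were chosen with earlier results of these data known.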

Additional observations from a re-analysis of the deposited data

How the results depend on the processing

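Between starvation and normal feeding, 0 receptor genes were called in each of the 11 groups of cells under every setting run: no low count filter, DESeq2, other cell filters, libraries as samples, added alternatives chosen after seeing the data, and the replicate block (0 called; the lowest adjusted p of any setting was 0.0948). Replicate numbers did not pair the samples (r of 0.094, 0.101 and -0.135). Counts over all genes moved: 3 in neurons became 311 without the filter, 105 with DESeq2 and 191 with the 7 libraries as samples, and 92 in glia-like cells became 404, 128 and 458. With libraries as samples, the 2 libraries of Normal B and the 2 of Starvation A counted as separate samples. Calls under that setting therefore do not measure the spread between replicates alone. The replicate block was fitted on the 7 libraries, where it took the count to 109 in neurons, against 191 without it, and to 158 in glia-like cells, against 458. Leaving out 1 replicate gave 1 to 231 calls in glia-like cells and 1 to 4 in neurons.

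Uncalled fold changes turned sign. Leaving out 1 replicate gave log2 values of -0.06 to 0.75 for Dop2R and -0.07 to 0.69 for Dop1R2 in neurons, of -0.02 to 0.74 for 5-HT1A and -0.24 to 0.70 for Dop2R in Vmat-led neurons, with the lowest each time without Starvation B (-0.0621, -0.0745, -0.0168 and -0.2373). Dop1R1 in Kenyon-like cells ran from -0.21 to 0.18 with 1 replicate left out (0.1835 without Normal B and 0.0469 without Starvation A) and from -0.23 to 0.18 over all settings, with 0.0053 without the filter. The cause was not tested. Of 99 fold changes, 39 kept their sign under all settings.

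Dop1R1, Dop1R2 and Octbeta1R were highest in Kenyon-like cells, and 5-HT1A in Vmat-led neurons, under the main and all 13 other settings for levels. Dop2R was highest in Kenyon-like cells under 13 of these 14, DopEcR in Gad1-led neurons under 7. UN-like cells could not be fitted without clusters mostly of 1 replicate, which left 1 normal replicate. With 2 and 3 replicates, changes within the interval given for a gene are not excluded.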

Other observations

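Among single clusters, Oamb had its highest mean in a VAChT-led cluster of 91 cells with Oaz, SiaT and C15 among its leading genes, at 109 ± 31.5 CPM (SD, n = 4). Octbeta3R had its highest mean, 417 ± 248 CPM (SD, n = 5), in a cluster of 233 cells led by C15, acj6 and otp. The 407 held back cells had the highest Octbeta2R level of any cluster, 228 ± 30.7 CPM (SD, n = 4). Their DopEcR level was 465 and 548 CPM in Starvation A and B, and 434 and 445 CPM in Normal B and C.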
